A study of Mus musculus with 2 samples.

Results

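Isg15, Usp18, Isg20, Rsad2, Mx1, Ifit1, Ifit2, Ifit3, Bst2 and Ifi35 are interferon-stimulated genes. Their products act on viruses, on the ISG15 modifier or on regulators of the response. These 10 genes were chosen by name, with earlier results on these arrays known. Every probe set that the platform's annotation assigns to only 1 of them was taken. This gave 13 probe sets for 9 genes, of 45101 probe sets and 18193 singly annotated genes on the array. Isg15 had no such probe set, because the one that names it also names a similar gene. Usp18, Isg20, Mx1, Ifit1, Ifit2, Ifit3 and Bst2 had 1 probe set each, and Rsad2 and Ifi35 had 3 each.

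RNA came from mouse cells labelled B cell, on a background labelled C57 from the Jackson Laboratory, from male animals. One array was titled mir155KO, with the genotype entry mir155 KO, and the other was titled mir155WT, with the genotype entry mir155 WT. The source names give the opposite genotype for both arrays, so each array is called here by its title, and every sign turns over if the source names are right. Both cultures received cycloheximide, an inhibitor of translation, at 100 ug/ml for 8 min before harvest. The labels describe the culture both as activated B cells and as haematopoietic progenitors kept for 6 days in granulocyte colony-stimulating factor and stem cell factor, and they do not name the knockout allele, the activating agent or the number of animals pooled. With 1 array per title there is no replicate spread, no difference could be tested, and each value is a single measurement of those 2 arrays.

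Type I interferons bind a receptor on the cell surface and act through kinases bound to it and a transcription factor complex that binds the interferon-stimulated response element (ISRE) in the promoters of responding genes. Among the proteins made in this way, ISG15 is a ubiquitin-like modifier that is joined to other proteins, and USP18 both removes it and damps signalling at the receptor. IFI35 acts on regulators of the response, and the others act more directly on viral RNA, viral assembly or virus release. Such genes are also transcribed at a low tonic level in unstimulated immune cells.

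All 9 measured genes were lower on the array titled mir155KO than on the array titled mir155WT, with log2 differences from -0.64 for Ifit2 to -0.19 for Ifi35. Their median difference was -0.28, against 0.03 over all 10717 expressed genes. A gene is given by its probe set with the highest mean level. It is called expressed if this mean reached 6.71, the middle value of the array without its control probe sets. All 13 probe sets passed this level on both arrays, and the lowest single value was 7.70. Among all expressed genes 42.1% were lower on the array titled mir155KO at any size, a share that was 50.6% after quantile normalization and 52.6% after subtraction of a loess curve. A lower RNA level per cell and fewer expressing cells cannot be told apart in such bulk RNA.

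The sizes were modest. Only Ifit2 was lower by 0.5 or more (1.41-fold), which is 1 of 9 genes, against 1.31% of all expressed genes. None of the 9 was higher by 0.5 or more, against 0.681%, and 0 of the 9 were lower by 2-fold, against 0.14%. After quantile normalization or loess subtraction Rsad2 joined Ifit2, at -0.51 and -0.53. Across all expressed genes 140 were lower and 73 higher by 0.5 or more, a split that became 167 and 52 after quantile normalization and 172 and 53 after loess subtraction. For a technical yardstick, 4906 genes with several expressed probe sets were used, taking the 2 of highest level. Their differences lay 0.084 apart at the median gene and 0.31 apart at the 95th percentile. The central 95% of expressed genes lay between -0.39 and 0.37.

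**Figure D1:**
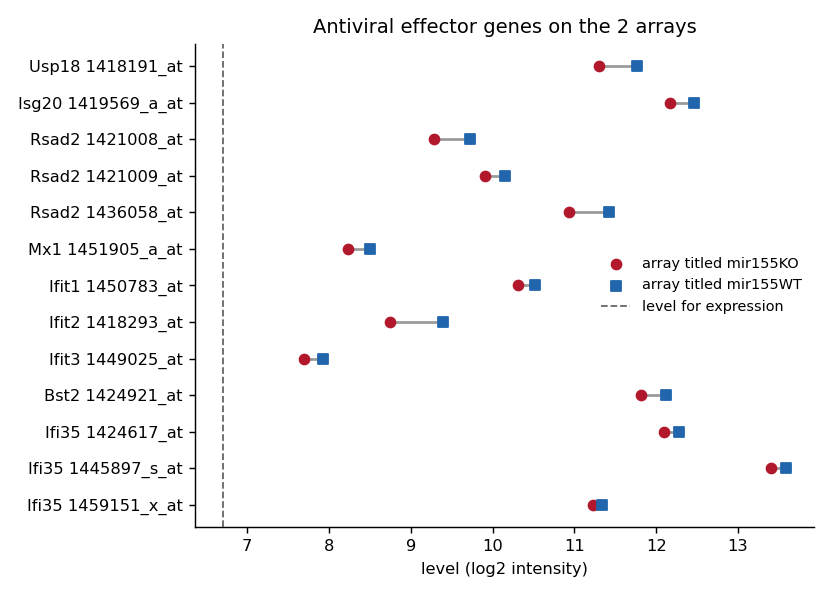
Level (log2 intensity) of each of the 13 probe sets on the array titled mir155KO (red circles) and the array titled mir155WT (blue squares), with the level for expression, 6.71, as a dashed line. In all 13 rows the red circle lies to the left; levels of different probe sets are not comparable with each other.

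The check of the titles came out against them. Mir155hg, the transcript from which miR-155 is processed, had a level of 10.88 on the array titled mir155KO and 6.63 on the array titled mir155WT. Mir155hg thus differed by 4.25, the highest value of all 10717 expressed genes, and its 6.63 was under the level for expression. Whether its probe set falls in the deleted stretch was not determined here, so the directions below belong to the titles and not to a verified genotype.

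Usp18 and Ifi35 act on the modifier or on regulators of the response. Usp18, the protease that takes ISG15 off its targets, had a level of 11.31 on the array titled mir155KO and 11.76 on the array titled mir155WT. Its difference of -0.46 (1.37-fold) was as low or lower in only 1.71% of expressed genes. Ifi35, which encodes a leucine zipper protein that pairs with NMI, was the member with the smallest difference. Its probe set of highest level read 13.40 and 13.59 on the arrays titled mir155KO and mir155WT, a difference of -0.19. The other 2 sets of Ifi35 differed by -0.19 and -0.11, so the 3 sets lay within 0.08 of each other. Nmi itself read 11.83 and 11.85, a difference of -0.02.

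The enzymes that attach ISG15 differed less than Usp18. They are Uba7, the activating enzyme (-0.14), Ube2l6, the conjugating enzyme (-0.08), Herc6, the main ligase in mice (-0.07), and Trim25, a ligase that can also use ISG15 (-0.04). All 4 were lower, against 42.1% of all expressed genes, 0 of them by 0.5 or more, with a median of -0.07. The other listed name was a misspelling of Arih1 and matched no gene. Arih1 itself was expressed and differed by -0.05. The direction of Uba7 depended on the probe set, because its 3 expressed sets ranged from -0.19 to 0.01. The 4 expressed sets of Herc6 ranged from -0.26 to -0.07, so its printed value is the one nearest 0.

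The IFIT genes encode tetratricopeptide proteins that bind viral RNA and block its translation. Ifit2 had the largest difference of all members, with a level of 8.75 on the array titled mir155KO and 9.39 on the array titled mir155WT. The difference of -0.64 (1.56-fold lower) put it among the 77 lowest of all expressed genes. Ifit1 read 10.31 and 10.52 on the same arrays, a difference of -0.21. Ifit3, whose product forms complexes with IFIT1, read 7.70 and 7.93, a difference of -0.23. Ifit2 stood 0.41 and 0.43 below Ifit3 and Ifit1, gaps that exceed the 0.31 between probe sets of a single gene at the 95th percentile. That yardstick holds no spread between samples, so whether the family members differ from each other was not tested.

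All 3 genes lie in 1 cluster on chromosome 19, where Ifit2 and Ifit3 are direct neighbours and Ifit1 follows Ifit1bl2. Of the relatives in that cluster, Ifit1bl2 differed by -0.21, close to Ifit1 and Ifit3. Ifit1bl1 was at 6.60 and 6.20 on the arrays titled mir155KO and mir155WT, under the level for expression, and its difference of 0.40 comes from a dim probe set. Ifit3 and Ifit1 have close paralogs there whose transcripts may reach the same probes.

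Rsad2 encodes viperin, a radical SAM enzyme that makes a chain-terminating nucleotide. Its probe set of highest level read 10.93 on the array titled mir155KO and 11.42 on the array titled mir155WT, a difference of -0.49 (1.40-fold lower). The second set read 9.28 and 9.72, a difference of -0.44. The third read 9.90 and 10.15, a difference of -0.25. All 3 sets of Rsad2 were thus lower on the array titled mir155KO, but they spanned 0.24, and their mean was -0.39. Cmpk2, the direct neighbour of Rsad2 on chromosome 12, encodes a nucleotide kinase that supplies viperin's substrate. It differed by -0.16, with its 2 expressed sets at -0.18 and -0.16.

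Isg20, an RNA exonuclease, read 12.17 on the array titled mir155KO and 12.46 on the array titled mir155WT, a difference of -0.28. Isg20l2, a related nuclease of the nucleolus, differed by 0.31 in the other direction. Mx1 encodes a dynamin-like GTPase that blocks influenza virus and has a defective allele in most laboratory mice, and the RefSeq annotation of C57BL/6J lists it as a transcribed pseudogene. It read 8.23 and 8.50 on the arrays titled mir155KO and mir155WT, a difference of -0.28. Its relative Mx2, close by on chromosome 16, differed by -0.31. Chromosome 16 is also the chromosome of Mir155.

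Bst2 encodes tetherin, a membrane protein that holds budding virions on the cell. Its level was 11.81 on the array titled mir155KO and 12.12 on the array titled mir155WT, a difference of -0.31 (1.24-fold lower). Because Bst2 is also used as a surface marker of plasmacytoid dendritic cells and plasma cells, markers of both were read beside it. Siglech, a defining marker of plasmacytoid dendritic cells, was under the level for expression on both arrays, at 5.97 and 6.02. Of 6 measured markers of these cells 5 were expressed, 2 lower and 3 higher, with a median of 0.01. Cox6a2 (0.04) and Tcf4 (-0.41) had the highest levels, and Spib (0.81), which B cells also express, differed most. Summed as intensities, this list read 12590 on the array titled mir155KO and 12543 on the array titled mir155WT, of which Cox6a2 alone gave 66.1% and 64.4%.

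**Figure D2:**
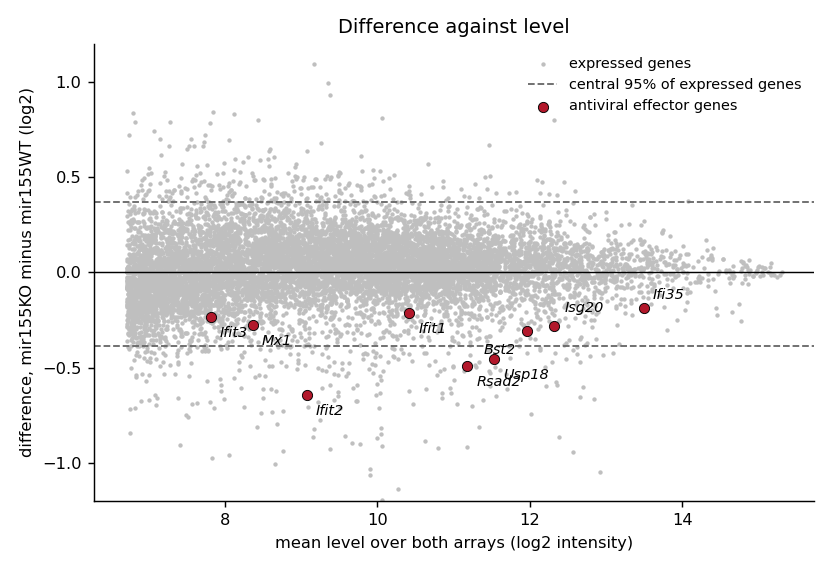
Difference between the arrays (log2, mir155KO minus mir155WT) against mean level (log2 intensity) for 10717 expressed genes (grey; 10 lie outside the axis) and the 9 antiviral effector genes (red), with dashed lines at the central 95%, -0.39 and 0.37. Ifit2, Rsad2 and Usp18 lie below the lower line, and the other 6 lie between it and 0.

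Ordered by difference, the members ran from Ifit2 (-0.64) through Rsad2 (-0.49), Usp18 (-0.46), Bst2 (-0.31), Isg20 (-0.28), Mx1 (-0.28), Ifit3 (-0.23) and Ifit1 (-0.21) to Ifi35 (-0.19). Neighbours in this order lay at most 0.153 apart, which is within the disagreement of probe sets of a single gene at the 95th percentile. Sorted values lie close together by construction, so these gaps do not tell whether the order would hold. Set against the 1000 probe sets nearest in mean level, whose differences had SDs of 0.12 to 0.21, 4 of the 13 probe sets fell outside the local central 95%. They were those of Usp18 and Ifit2 and 2 of the 3 of Rsad2. The other 9 fell inside it, each on the lower side.

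Upstream genes of the pathway were read from lists chosen for this tissue. Among the ligands, Ifnb1, the interferon beta gene, was under the level for expression on both arrays, at 5.96 and 6.21. Only 2 of 9 measured ligand genes were expressed, Ifng (-0.33) and Ifna1 (0.07). Ifna1 had 1 expressed probe set, at 7.14 and 7.07, of the _x_at type that is left out with plain _at probe sets only. Of 9 measured receptor and transducer genes 7 were lower, against 42.1% of all expressed genes, and 2 were higher. Their median was -0.04, and 0 of them differed by 0.5 or more. The lowest were Stat2 (-0.33), a subunit of the factor that binds the ISRE, and Ifnar1 (-0.27), a chain of the type I receptor. Ifngr2 (0.04) and Tyk2 (0.01) were the highest, and both turned below 0 under an alternative, Ifngr2 just below it after loess subtraction and Tyk2 to -0.10 with the mean of its 2 sets (-0.20 and 0.01). The 2 sets of Ifnar1 disagreed, at -0.27 and 0.18, and those of Stat2 differed by -0.33 and -0.12.

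All 4 interferon regulatory factors read were lower, 0 of them by 0.5 or more, against 42.1% lower among all expressed genes. Their median of -0.11 was -0.03 with plain _at probe sets only. Irf7, itself interferon-induced, was the lowest (-0.33), followed by Irf1 (-0.13), and Irf5 (-0.10) and Irf3 (-0.09) were the highest. The direction of Irf3 turned with plain _at probe sets only (0.04). Among 7 negative regulators of the pathway 5 were lower, against 42.1% of all expressed genes. Lower by 0.5 or more was 1 of the 7, against 1.31%. Their median of -0.19 was -0.06 with plain _at probe sets only. Socs3, a feedback inhibitor of cytokine receptors, was the lowest (-0.61, with 3 sets between -0.61 and -0.57), and Pias1 stood at -0.33. Ptpn6 (0.10), which encodes the phosphatase SHP-1, and Irf2 (0.05) were the highest.

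Other interferon-stimulated genes were lower to a similar degree. Of 46 measured, 41 were lower and 5 higher, against 42.1% lower among all expressed genes, with a median of -0.23. By 0.5 or more 8 were lower and 0 higher, against 1.31% and 0.681% of all expressed genes. The lowest were Oasl2 (-1.63), an oligoadenylate synthetase-like gene, and Ifi204 (-1.51), a DNA-sensing family gene. The highest were Ifi203 (0.11) and Sp110 (0.05), the second of which turned to -0.01 after quantile normalization. The median of the 9 antiviral effectors was thus close to that of the 46 other genes. The largest difference among the effectors was smaller than those of Oasl2 and Ifi204. The members and the lists of the pathway were chosen with earlier results on these arrays known and are not independent evidence of its direction.

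**Figure D3:**
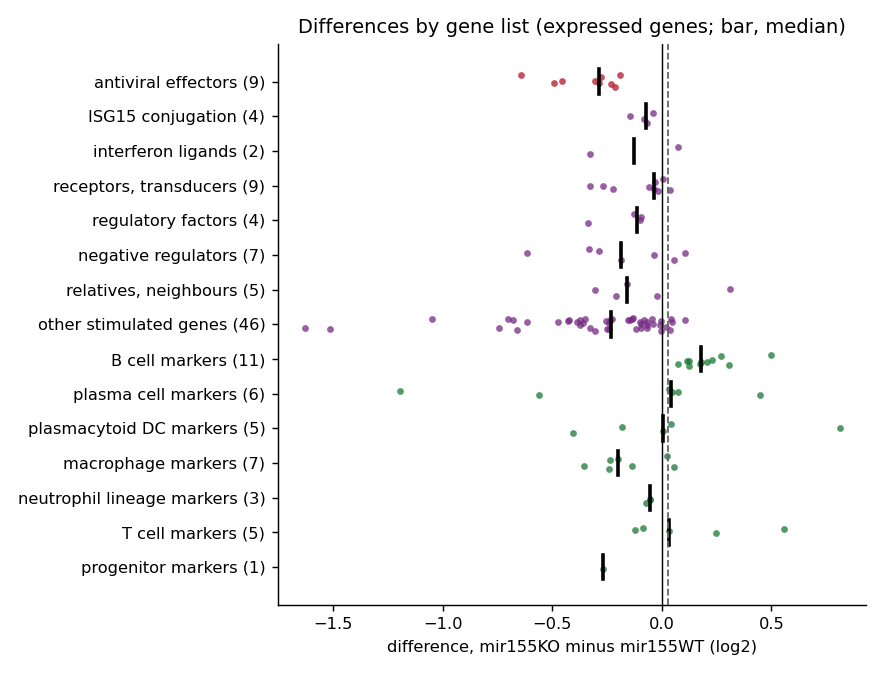
Difference (log2, mir155KO minus mir155WT) of each expressed gene, 1 row per list with the number of genes in brackets; the thick bar is the list's median, the dashed line the median of all expressed genes (0.03), and vertical scatter has no meaning. The 9 antiviral effectors (red) all lie below 0, with a median of -0.28, and all 11 B cell markers lie above 0.

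Cell type markers differed beside these genes. All 11 measured B cell markers were expressed and higher on the array titled mir155KO, against 6099 of all 10717 expressed genes. Their median was 0.18. Among them were Cd79b (0.27) and Ms4a1 (0.18), which had the highest levels, and Blk (0.50), which differed most. Summed as intensities, these B cell markers read 38868 on the array titled mir155KO and 33742 on the array titled mir155WT. Of 10 measured macrophage and monocyte markers 7 were expressed, 5 lower and 2 higher, with a median of -0.20. Among all expressed genes 42.1% were lower. The 10 measured markers had median levels of 6.87 and 7.12 on the arrays titled mir155KO and mir155WT, near the 6.71 for expression. Their sum was 1201 and 1312. Ccr2 (0.06, just below 0 after quantile normalization) and Csf1r (-0.14) had the highest levels of that list, and Cd14 (-0.35) differed most. The 3 expressed sets of Csf1r ranged from -0.54 to -0.14, so its printed value is the one nearest 0. The other expressed members were Adgre1 (0.03), Cd68 (-0.24), Lyz2 (-0.24) and Fcgr1 (-0.20), and C1qa, C1qb and Itgam were under the level for expression. The part of these markers in the lower antiviral genes was not tested.

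Of 7 measured plasma cell markers 6 were expressed, 2 lower and 4 higher, with a median of 0.04. Xbp1 (0.03) and Irf4 (0.05, just below 0 with the mean of its probe sets) had the highest levels, and Prdm1 (-1.19) differed most. Jchain (-0.56) was the other marker lower by 0.5 or more. That makes 2 of 6, against 1.31% of all expressed genes. Slamf7 (0.45) and Sdc1 (0.07), the remaining expressed markers, were higher. Summed as intensities the plasma cell list read 18851 and 18898, of which Xbp1 alone gave 42.3% and 41.2%. Of 10 neutrophil lineage markers 3 were expressed, with a median of -0.05, led by Lcn2 (-0.05) and Camp (-0.07), and Elane, Mpo, S100a8 and S100a9 were under the level for expression. T cell markers had a median of 0.04 over 5 expressed of 7 measured, 2 lower and 3 higher. Cd3e (0.25) and Thy1 (0.56) had the highest levels, and Cd3d (-0.12) and Cd8a (-0.08) went the other way. Of 5 progenitor markers only Flt3 was expressed (-0.27). All 11 measured B cell markers passed the level for expression. So did 6 of 7 plasma cell, 5 of 6 plasmacytoid dendritic cell, 7 of 10 macrophage and 5 of 7 T cell markers. Most markers of neutrophils and progenitors were under it. These counts do not single out 1 cell type, since 10717 of all 18193 singly annotated genes passed this level. On the array titled mir155KO the highest level was 13.63 for B cell, 13.02 for plasmacytoid dendritic cell and 12.96 for plasma cell markers. It was 8.26 for macrophage and 7.92 for T cell markers, though levels of different probe sets are not comparable with each other. The labelled cell type was not tested.

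The promoters of the members were read because the members were lower together, without any measurement of factor binding. RefSeq windows of 300 bases, 250 before to 50 after an annotated start (GRCm38.p6), matched 8 of the 10 genes with 11 windows, and Usp18 and Mx1 were not matched. The letters searched, on both strands, were the ISRE core (GAAA, any 2 bases, GAAA) and the core of the gamma-activated sequence (TTC, any 3 bases, GAA). The ISRE core was found in Isg15, Rsad2, Ifit1, Ifit3 and Bst2, which is 5 of 8 genes, against 3.44% of 32851 windows and 3.99% of 27025 genes in the table. More than 1 match stood in the windows of Isg15, Ifit1, Ifit3 and Bst2, against 0.225% of all windows. The members were picked as interferon-stimulated genes, so a share above that of all promoters could come from that choice alone. The same holds for the gamma-activated sequence below. Any part of these letters in the differences between the arrays was not tested. The 160 bases before the start are printed for these 5 genes, 5′ to 3′ along the gene, because they show where the element lies. Capitals mark the ISRE core in either orientation.
Isg15, chr4:156200819-156200978, minus strand: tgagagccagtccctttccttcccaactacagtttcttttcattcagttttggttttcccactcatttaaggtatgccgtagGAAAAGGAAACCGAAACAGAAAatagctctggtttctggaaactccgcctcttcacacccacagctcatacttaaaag
Rsad2, chr12:26456453-26456612, minus strand: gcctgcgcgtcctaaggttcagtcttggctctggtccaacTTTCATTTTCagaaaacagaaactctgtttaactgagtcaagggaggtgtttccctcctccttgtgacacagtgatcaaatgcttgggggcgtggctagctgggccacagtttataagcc
Ifit1, chr19:34640729-34640888, plus strand: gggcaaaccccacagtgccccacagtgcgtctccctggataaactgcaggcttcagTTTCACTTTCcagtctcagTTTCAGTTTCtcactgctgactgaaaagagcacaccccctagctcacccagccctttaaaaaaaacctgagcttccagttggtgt
Ifit3, chr19:34583369-34583528, plus strand: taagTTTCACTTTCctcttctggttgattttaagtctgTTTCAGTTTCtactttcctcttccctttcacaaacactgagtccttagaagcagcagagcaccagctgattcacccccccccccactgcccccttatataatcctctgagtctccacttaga
Bst2, chr8:71537473-71537632, minus strand: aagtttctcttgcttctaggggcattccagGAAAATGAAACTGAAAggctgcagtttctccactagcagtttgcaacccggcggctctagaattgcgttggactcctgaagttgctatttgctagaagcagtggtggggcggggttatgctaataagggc

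In Isg15 3 overlapping matches ran from 78 to 57 bases before the start, and in Bst2 2 overlapping matches ran from 130 to 115 bases before it. Ifit1 and Ifit3 held the same pair of 10-letter matches, TTTCACTTTC and then TTTCAGTTTC, on the opposite strand. In Ifit1 the pair began 104 and 85 bases before the start, and in Ifit3 it began 156 and 122 bases before it. Rsad2 held 1 match, TTTCATTTTC, 120 bases before its start. Of these 5 genes the 4 with a value differed by -0.49 (Rsad2), -0.31 (Bst2), -0.23 (Ifit3) and -0.21 (Ifit1). Ifit2, which had the largest difference, held no ISRE core letters in either of its windows, which says only that these letters are not there.

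The gamma-activated sequence core was found in Isg20, Ifit2, Bst2 and Ifi35, which is 4 of 8 genes, against 8.3% of windows and 9.55% of genes. In Bst2 it overlapped the first ISRE match, and in Ifi35 it lay 7 to 15 bases after the start. The windows of Isg20 held no ISRE core letters.

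**Figure D4:**
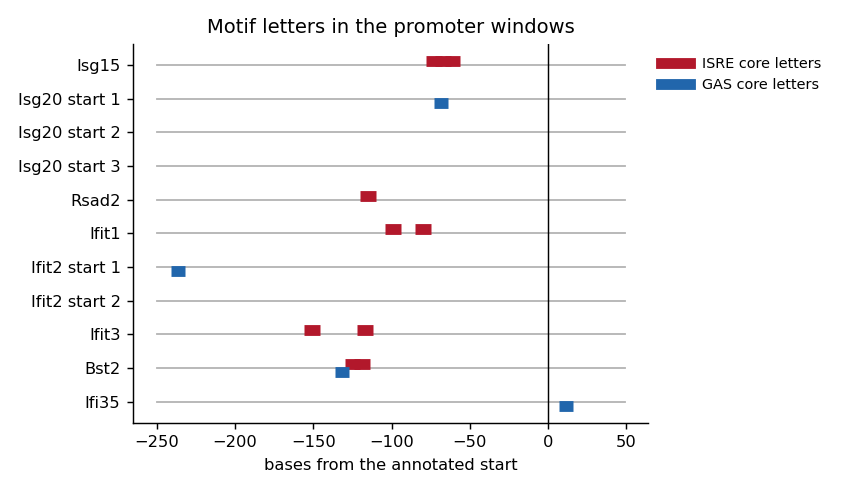
Position of ISRE core letters (red) and gamma-activated sequence (GAS) core letters (blue) in bases from the annotated start, for the 11 RefSeq promoter windows of 8 genes. Most matches lie within the 160 bases before the start, and those of Ifit2 (241 bases before it) and Ifi35 (after it) lie outside that stretch.

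Processing moved the members little. Under every alternative processing that gave a value, the difference of every member stayed below 0. Ifit2 ranged from -0.70 to -0.64, Usp18 from -0.49 to -0.46 and Rsad2 from -0.53 to -0.39. Bst2 ranged from -0.34 to -0.31, Mx1 from -0.33 to -0.28, Isg20 from -0.31 to -0.28 and Ifit3 from -0.27 to -0.23. The smallest differences stayed small, with Ifit1 between -0.26 and -0.21 and Ifi35 between -0.21 and -0.16.

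**Figure D5:**
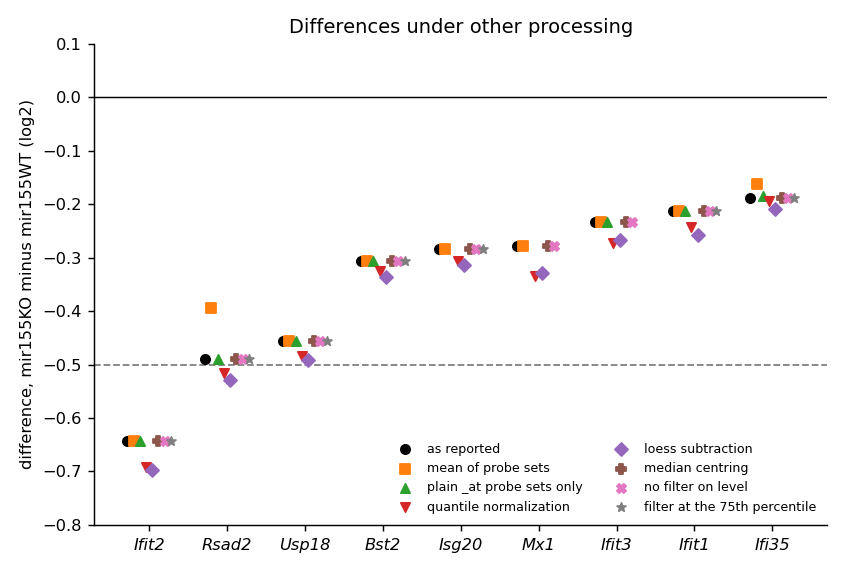
Difference (log2, mir155KO minus mir155WT) of each of the 9 genes as reported and under 7 alternatives, where the gene passed the filter; the dashed line marks -0.5. All points lie below 0, Ifit2 lies below the dashed line throughout, and Rsad2 crosses it only after quantile normalization and loess subtraction.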

How the data were processed

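Per the labels, biotin-labelled cRNA (Affymetrix 3′ IVT Express) was hybridised to 1 array per title. The deposited values are log2 intensities per probe set, between 3.09 and 15.4, a unit read from the values; how the authors corrected, summarised and normalized them is not given in the sources used here. Array medians were 6.70 and 6.72. Precision is limited by the number of arrays.

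Probe sets took their gene from the platform annotation, where 34945 named 1 gene, 932 several, 9160 none, and 64 were controls. Differences are the array titled mir155KO minus the array titled mir155WT. No test was possible. The members and lists were chosen with earlier results of these data known. From each pathway list the 2 highest and 2 lowest expressed genes were named, and from each cell type list the 2 of highest level and the 1 that differed most; the other members of short lists, and markers under the level for expression, were chosen after their values were seen. Counting and alternatives were tested on simulated data. Alternatives were the mean of probe sets, plain _at sets only, quantile normalization, loess subtraction (span 0.3), subtraction of the median difference, no filter, a filter at the 75th percentile (8.84) and a 2-fold call. Software was NumPy 2.4.6, pandas 2.3.3, matplotlib 3.10.9 and statsmodels 0.14.6 under Python 3.11.15.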

Additional observations from a re-analysis of the deposited data

Results flagged for a closer look

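One probe set stands outside the comparison because its annotation names both Isg15 and Gm9706. It read 12.20 on the array titled mir155KO and 12.50 on the array titled mir155WT, a difference of -0.30, and it was above the level for expression on both arrays. Which of these genes gave the signal was not determined here.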

How the results depend on the processing

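The count of members lower by 0.5 or more was 1; it was 2 after quantile normalization, 2 after loess subtraction, and 0 when 2-fold was the limit. Under the alternatives run, every measured member stayed below 0 and the members' median ranged from -0.33 to -0.28; plain _at sets and the 75th percentile filter left 7 members. Averaging its probe sets moved Rsad2 to -0.39. Medians of other lists moved most as follows: T cell markers to 0.15 with the mean of probe sets and -0.06 without a filter, interferon ligands to -0.33 with plain sets and 0.03 without a filter, negative regulators to -0.06 with plain sets and -0.11 with the mean of sets, regulatory factors to -0.03 with plain sets, receptors and transducers to -0.08 and relatives to -0.21 after loess subtraction, plasma cell markers to -0.01 and plasmacytoid dendritic cell markers to 0.08 with the mean of sets, the latter to -0.04 after quantile normalization, progenitor markers to -0.09 without a filter, and relatives and neighbours to 0.15 with the 75th percentile filter. Counts lower by 0.5 or more moved for the other interferon-stimulated genes from 8 to 5 with that filter and 3 at 2-fold, for plasma cell markers from 2 to 1 under both, for negative regulators from 1 to 0 at 2-fold, and for macrophage markers from 0 to 1 without a filter. Subtracting the median difference over all probe sets changed nothing, because that median was 0. No paired analysis was possible because each title has 1 array, and for the same reason no array could be left out. The planned background correction and pseudocounts were not run, since the table holds summarised log2 values.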
